A study of Mus musculus with 17 samples.

Results

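The genes described here are the chains of fibrillar collagens types I, III and V together with the enzymes and helper proteins that modify, fold, export, trim and cross-link them. They were chosen by name, and 32 of the 21798 genes listed for the series belong to the set: 6 chains, 13 prolyl and lysyl hydroxylases with their partner proteins, 4 chaperones, glycosylation and export proteins, 3 proteins of propeptide cleavage and 6 cross-linking enzymes. All 32 were among the 16218 genes that passed the filter on low values (at least 0.5 CPM, the count scaled to the library total, in 3 or more libraries). Polyadenylated RNA was sequenced from the left ventricular apex of male C57Bl6/J mice that were 7–8 weeks old at surgery, collected 3 weeks after transverse aortic constriction (TAC, a suture around the aortic arch that overloads the left ventricle) or Sham surgery. Mice received 6 oral gavages of 50 μg/kg 29P, an orally available prodrug of a cyclic peptide that binds integrin αvβ3, or the same volume of saline (Veh), over the last 2 weeks. The 17 libraries, each from the heart of a different mouse, comprised 6 of TAC 29P, 3 of TAC Veh, 5 of Sham Veh and 3 of Sham 29P. The apex is a mixture of cell types, and so a change in a gene can reflect either more cells that express it or more RNA per cell, which bulk libraries cannot tell apart.

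Fibrillar collagens are made as procollagen chains that wind into a triple helix in the endoplasmic reticulum, where prolines and lysines are hydroxylated, lysines are glycosylated and a dedicated chaperone holds the helix together. After export, proteinases remove the propeptides at either end, the trimmed molecules assemble into fibrils, and lysyl oxidases cross-link them. In the heart these chains are made mainly by fibroblasts, and type I and type III collagen form most of the interstitial matrix.

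Sequencing depth, estimated from the step between neighbouring low values, was 14200000 to 23800000 reads per library. Libraries are named here by their number in the labels, for example S2. The labels hold a further number per library, taken here as that of the animal, and these numbers were grouped here into 4 runs. The library with the fewest reads was Sham 29P S14, which also had the highest share of mitochondrial transcripts (40.0%) and the most genes listed at 0 (3582). Mitochondrial transcripts took 29.1–40.0% of each Sham library and 23.6–29.4% of each TAC library. The 3 libraries S18 (TAC 29P), S19 and S20 (both Sham Veh) carried transcripts typical of the atrium, with Myl7, Myl4 and Sln summing to 1015–2543 CPM against 0.352–5.75 CPM in the other 14. Results are given with and without them below. The median gene stood 0.35 higher on the log2 scale in TAC Veh than in Sham Veh, and 0.37 higher in TAC 29P than in Sham 29P; with trimmed-mean (TMM) scaling of the same values, these shifts were 0.01 and 0.02. Changes after TAC are given on the CPM scale, which includes this shift. For the members in Veh mice, TMM scaling is named where it ends a call or turns a direction. The calls it ends in 29P mice are listed together. An additional TAC Veh library had been left out by the authors because it grouped with Sham mice in a principal component analysis, so the separation of TAC Veh from Sham Veh is that of the libraries kept.

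All 6 chains had higher mean CPM in TAC than in Sham hearts. In the Veh groups, 5 of them rose: Col1a1 4.25-fold, Col5a2 3.68-fold, Col3a1 3.33-fold, Col1a2 3.25-fold and Col5a1 3.04-fold. Over all 32 genes, 23 rose after TAC in Veh mice and none fell at an adjusted p of 0.05, where 22.5% of all genes tested rose and 1.91% fell. The median change of the 32 was 0.95 on the log2 scale against 0.35 for all genes. With TMM scaling 19 of the 32 rose, against 3.85% of all genes (5.75% fell), and their median was 0.62.

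Col1a1, the α1 chain of type I collagen (chr11:94936224-94953042, plus strand, mm10), was at 72.0, 36.2, 64.7, 48.2 and 68.8 CPM in the Sham Veh libraries. In the TAC Veh libraries it was at 343, 180 and 220 CPM. No Sham Veh library reached any TAC Veh library, and the means were 58.0 ± 15.2 (SD, n = 5) and 248 ± 85 CPM (SD, n = 3). The log2 fold change was 2.09 ± 0.36 (SE, adjusted p = 0.00196). Without TAC Veh S2, the library with the highest value, Col1a1 remained among the 10 members that rose.

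Col1a2, the α2 chain of type I collagen (chr6:4504814-4541544, plus strand), was at 110, 81.0, 122, 129 and 137 CPM in Sham Veh. It was at 458, 282 and 392 CPM in TAC Veh, so the groups did not overlap. The log2 fold change was 1.70 ± 0.29 (adjusted p = 0.00186). Col3a1, the single chain of type III collagen (chr1:45311538-45349706, plus strand), was at 219, 148, 204, 240 and 217 CPM in Sham Veh. It reached 840, 488 and 758 CPM in TAC Veh, again with no overlap, and its log2 fold change was 1.74 ± 0.31 (adjusted p = 0.00233). With TMM scaling the log2 changes of Col1a1, Col1a2 and Col3a1 were 1.75, 1.36 and 1.40, and all 3 were still called.

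Type V collagen is a minor component that nucleates type I fibrils and limits their width. Col5a1 (chr2:27886425-28039514, plus strand) was at 21.4–37.8 CPM in Sham Veh and at 110, 66.7 and 94.2 CPM in TAC Veh (log2 fold change 1.60 ± 0.24, adjusted p = 0.00119). Col5a2 (chr1:45374321-45503282, minus strand), whose neighbour on the chromosome is Col3a1, was at 30.9–37.8 CPM in Sham Veh and at 176, 80.5 and 138 CPM in TAC Veh (1.88 ± 0.29, adjusted p = 0.00126). Both were separated from Sham Veh in every TAC Veh library. Col5a3 (chr9:20770050-20815067, minus strand), the rarest type V chain here, varied more among the Sham libraries. It ranged from 5.94 to 23.6 CPM in Sham Veh and was at 27.2, 16.4 and 21.6 CPM in TAC Veh. The groups overlapped, and the difference of 0.94 ± 0.43 on the log2 scale did not pass (adjusted p = 0.107).

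**Figure D1:**
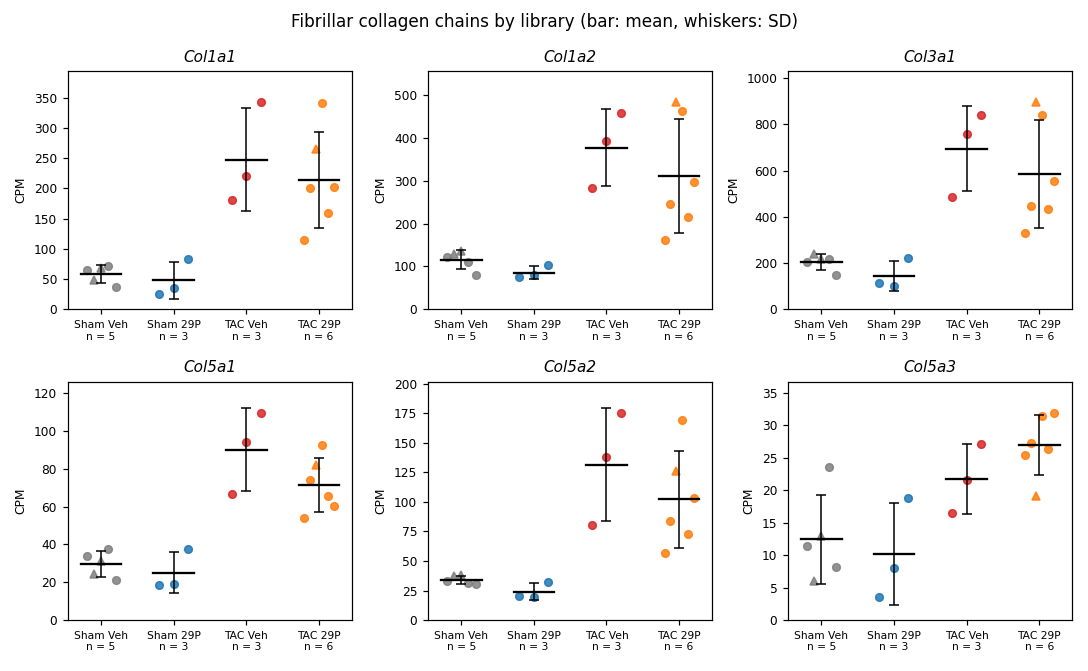
CPM (linear axis from 0) of the 6 fibrillar chains in each of the 17 libraries, by group; bars are group means, whiskers SD, and triangles mark the 3 libraries with atrial transcripts. The 9 TAC libraries lie above the 8 Sham libraries for all chains except Col5a3, where the groups overlap.

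In the mice given 29P, the same comparison gave a rise in all 6 chains, with 27 of the 32 genes higher and none lower (31.4% of all genes tested rose). The 27 include P4ha3, which was listed at 0 in S14 and S15 and passed the filter on low values through TAC libraries alone. Its call is therefore no support. With TMM scaling the count was 17, where 5.70% of all genes rose and 4.94% fell. The calls that TMM scaling ended in 29P mice were those of Colgalt1, Crtap, Lox, P3h2, P4ha1, P4ha3, P4hb, Plod3, Ppib and Tgm2. Col1a1 was at 83.2, 26.1 and 35.2 CPM in Sham 29P (S4, S14 and S15). In TAC 29P it spanned 114 CPM (S1), a median of 202 CPM and 341 CPM (S3). The lowest TAC 29P library was thus above the highest Sham 29P library, and Col1a1 rose 4.75-fold (log2 2.25 ± 0.35, adjusted p = 0.00138). Col1a2 rose 3.40-fold, Col3a1 4.05-fold, Col5a1 2.96-fold and Col5a2 4.13-fold. Col5a3 rose 3.26-fold from 18.8, 3.59 and 7.98 CPM in Sham 29P to 19.2–32.0 CPM in TAC 29P (adjusted p = 0.00875); it was no longer called when S14 was left out or when the fit held a term for the runs of animal numbers. The 2 comparisons are against different Sham libraries, and for none of the 32 genes did the size of the TAC effect differ between Veh and 29P mice at an unadjusted p of 0.05 (limma, interaction). At that threshold 2.84% of all genes were called.

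Over all 9 TAC and 8 Sham libraries together, 19 of the 32 genes had no overlap between TAC and Sham, against 9.52% of all genes tested. Of the 6 chains, Col1a1, Col1a2, Col3a1, Col5a1 and Col5a2 were among them. For these 5 chains every TAC library therefore exceeded every Sham library within each of the 4 runs of animal numbers. This follows from the lack of overlap and adds no further support. Such separation within a run held for 25, 28, 31 and 30 of the 32 genes in the 4 runs, where it held for 30.3%, 63.7%, 75.9% and 64.2% of all genes. The 19 genes above are in each of these counts by definition. The counts of 28, 31 and 30 include P4ha3, which passed the filter on low values through TAC libraries alone. Within runs the TAC–Sham difference of Col1a1 was 1.81, 2.13, 2.64 and 2.20 on the log2 scale, from 6 and 3, 1 and 2, 1 and 1, and 1 and 2 TAC and Sham libraries, respectively. The run with 1 library of each set TAC Veh against Sham 29P, and the last run set TAC 29P against Sham Veh. Surgery and drug cannot be told apart in either. The other runs pooled Veh and 29P libraries. The last run is that of the 3 libraries with atrial transcripts. Without those 3 libraries, 23 members rose in Veh mice (13.4% of all genes) and 26 in 29P mice (30.2% of all genes). P4ha3 was among the 26.

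Levels were also expressed per kilobase of the principal transcript, which compares genes only as far as that transcript is the form expressed. On this scale Col3a1 had the highest mean of the chains in Sham Veh (37.0 ± 6.21 CPM per kb, SD, n = 5), above Col1a2 (21.6 ± 4.09) and Col1a1 (9.78 ± 2.57). The type V chains were lower, at 5.14 ± 0.49 for Col5a2, 3.53 ± 0.80 for Col5a1 and 2.03 ± 1.12 for Col5a3. Col1a1 and Col1a2 stood apart by more than their SDs, whereas Col5a1 and Col5a3 differed by less than the sum of theirs. In TAC Veh the order was the same, with Col3a1 at 125 ± 33.1, Col1a2 at 70.6 ± 16.6 and Col1a1 at 41.8 ± 14.3 CPM per kb (SD, n = 3). There Col1a2 and Col1a1 differed by less than the sum of their SDs. Per kilobase, the chaperone Serpinh1 had the highest mean of all 32 genes in each of the 4 groups. In each group its lead over the next gene was less than the sum of their SDs, so that this rank is not firm. The next gene was Ppib in both Sham groups and Col3a1 in both TAC groups. In TAC Veh, Serpinh1 was at 130 ± 33.1 CPM per kb against 125 ± 33.1 for Col3a1.

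The chains Col1a2 and Col3a1 rose after TAC, and the prolyl hydroxylase subunit P4ha1 was called in only 1 of the 2 comparisons. The sequences ahead of the start sites of these genes are shown as examples. They are the 250 bases before the RefSeq start site (GRCm38.p6, plus strand), with capitals marking letters that were searched on both strands. The letters were CCAAT, the box that the factor NF-Y is known to bind, and GGGCGG, the GC box that Sp1-type factors are known to bind. The search also took in TATAAA, the TATA box of many start sites, and ACGTG, the core that hypoxia response elements have in common. Col1a2 lies at chr6:4505368-4505617, Col3a1 at chr1:45311288-45311537 and P4ha1 at chr10:59323046-59323295. The Col1a2 window lies inside the longer gene model that the count table used.
Col1a2: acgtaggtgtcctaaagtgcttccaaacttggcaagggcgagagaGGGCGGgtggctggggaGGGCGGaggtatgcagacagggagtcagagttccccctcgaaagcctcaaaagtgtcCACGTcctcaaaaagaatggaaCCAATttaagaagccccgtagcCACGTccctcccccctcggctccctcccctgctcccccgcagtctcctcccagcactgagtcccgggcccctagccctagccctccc
Col3a1: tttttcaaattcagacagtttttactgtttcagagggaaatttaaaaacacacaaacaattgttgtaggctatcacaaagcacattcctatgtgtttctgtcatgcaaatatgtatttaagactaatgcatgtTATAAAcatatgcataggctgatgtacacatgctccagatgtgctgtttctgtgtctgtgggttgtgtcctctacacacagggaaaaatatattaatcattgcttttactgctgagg
P4ha1: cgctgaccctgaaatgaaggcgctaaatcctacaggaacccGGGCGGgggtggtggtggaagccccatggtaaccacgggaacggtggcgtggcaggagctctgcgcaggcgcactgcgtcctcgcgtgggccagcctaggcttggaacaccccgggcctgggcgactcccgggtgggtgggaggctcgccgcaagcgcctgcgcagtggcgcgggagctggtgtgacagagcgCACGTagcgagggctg

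The Col1a2 window held 2 GC boxes, a CCAAT box that begins 109 bases ahead of the start site, and 2 copies of ACGTG on the opposite strand. Col3a1 held only a TATAAA, 117 bases ahead, and P4ha1 held a GC box and, on the opposite strand, an ACGTG that begins 16 bases ahead. Windows were found for 20 of the 32 genes. GGGCGG was in 16 of the 20 (80.0%) against 32.7% of all 32851 windows of the same length, ACGTG in 10 (50.0%) against 16.6%, CCAAT in 7 (35.0%) against 33.8% and TATAAA in 3 (15%) against 12.4%. The windows of Col1a2 and Col3a1 shared none of the 4. These are matches of letters, and whether they bear on expression was not tested.

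The prolyl and lysyl hydroxylases changed less than the chains. In Veh mice 6 of the 13 rose (4 with TMM scaling), with a class median of 0.61 on the log2 scale against 1.72 for the chains. In 29P mice 10 of the 13 rose, and 3 did with TMM scaling. The 10 include P4ha3, whose call rests on libraries listed at 0. Over all genes the shares that rose were 22.5% and 3.85% in Veh mice and 31.4% and 5.70% in 29P mice. P3h2 (2.46-fold), P3h3 (2.43-fold) and P3h1 (1.96-fold), which hydroxylate prolines at the third carbon, rose most among those with values in every library. Plod3 (1.83-fold) and Plod1 (1.66-fold), lysyl hydroxylases, and P4hb (1.42-fold), the shared β subunit of the prolyl 4-hydroxylases, also rose, although P4hb and Plod1 were not called with TMM scaling. Values for Crtap (1.53-fold, adjusted p = 0.0623), Ppib (1.37-fold, 0.0544) and Plod2 (1.45-fold, 0.0761) did not pass. These 3 lay near the threshold: Ppib and Plod2 were called with a term for the runs of animal numbers (adjusted p = 0.0283 and 0.0484), without S12 and without the libraries with atrial transcripts. Ppib was also called without S20, with 1 CPM added or with 1 CPM required in every library, and Crtap in a fit of the 2 groups alone.

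The 3 catalytic α subunits of prolyl 4-hydroxylase, the enzyme that makes the helix stable at body temperature, did not pass in Veh mice. P4ha1 (chr10:59323296-59373304, plus strand) was at 63.6, 48.1, 52.3, 64.2 and 56.2 CPM in Sham Veh and at 89.8, 47.6 and 93.1 CPM in TAC Veh. One TAC Veh library, S12, lay below every Sham Veh library, while the other two lay above them all (log2 fold change 0.38 ± 0.27, adjusted p = 0.299). In 29P mice P4ha1 was 1.68-fold higher in TAC (adjusted p = 0.0404), from 53.8, 40.9 and 38.0 CPM in Sham 29P to 53.2–152 CPM with a median of 68.3 CPM in TAC 29P. It was not called with TMM or median-of-ratios scaling, with mitochondrial genes left out of the totals, with no filter, with a term for the runs of animal numbers or in a fit of the 2 groups alone. Leaving out S3, S8, S9, S14 or S15 in turn, or the 3 libraries with atrial transcripts, also ended the call. P4ha2 was 1.32-fold higher in Veh mice (adjusted p = 0.139) and 1.25-fold higher in 29P mice (adjusted p = 0.200), a difference that with TMM scaling was 0.06 and −0.04 on the log2 scale.

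P4ha3, a scarce α subunit, had the largest fitted change of its class, but that value rests on libraries listed at 0. It was listed at 0 in S5 and S13 and at 0.22, 0.18 and 0.10 CPM in the other Sham Veh libraries. Sham 29P held 0.046 CPM in S4 and was listed at 0 in S14 and S15. TAC Veh libraries were at 0.55, 0.20 and 0.69 CPM, and TAC 29P libraries at 0.136–1.096 CPM with a median of 0.345. No fold change is given, since it would depend on the constant added to the values; the call in TAC 29P against Sham 29P, one of the 27, is of this kind. P4ha3 passed the filter on low values through TAC libraries alone.

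P3h4 (chr11:100408456-100414836, minus strand), a non-enzymatic member of the prolyl 3-hydroxylase family that takes part in lysyl hydroxylation, was the only 1 of the 32 that was not higher in TAC Veh than in Sham Veh. It was at 14.5, 11.1, 15.02, 12.5 and 20.9 CPM in Sham Veh and at 12.97, 11.9 and 12.3 CPM in TAC Veh, inside the Sham range. The log2 difference was −0.22 ± 0.23 (adjusted p = 0.480), and with TMM scaling −0.56 (adjusted p = 0.0672, unadjusted p = 0.00801). In TAC 29P its lowest value was 14.01, its median 16.4 and its highest 17.8 CPM, so that all 6 libraries lay above all 3 TAC Veh libraries. It was the only member whose TAC 29P and TAC Veh libraries did not overlap, where 0.839% of all genes were higher in this way; the difference of 0.38 on the log2 scale (95% confidence interval −0.10 to 0.86) did not pass (unadjusted p = 0.111). With TMM scaling the unadjusted p was 0.0390 and the adjusted p 0.9999.

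Among the chaperones, glycosylation and export proteins, 3 of 4 rose in Veh mice and 3 in 29P mice, and 2 in each with TMM scaling. Over all genes 22.5% and 31.4% rose in these comparisons, and 3.85% and 5.7% with TMM scaling. Fkbp10, a prolyl isomerase that assists collagen folding, rose 1.90-fold, from 8.17–14.9 CPM in Sham Veh to 28.3, 19.2 and 20.5 CPM in TAC Veh (adjusted p = 0.0147). Colgalt1, which adds galactose to hydroxylysine, rose 1.61-fold (adjusted p = 0.00484). Mia3, which loads procollagen into transport carriers, was 1.24-fold higher, at 68.0, 65.5 and 65.0 CPM against 46.6–58.4 CPM (adjusted p = 0.0357), but with TMM scaling its change was −0.03 on the log2 scale. Its call was also lost with mitochondrial genes left out of the totals, with a term for the runs of animal numbers, in a fit of the 2 groups alone, without the libraries with atrial transcripts, and without S2, S6, S12, S16 or S19.

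Serpinh1 (chr7:99345376-99353239, minus strand), which encodes the collagen-specific chaperone HSP47, was at 246, 131, 177, 201 and 199 CPM in Sham Veh. It was at 349, 210 and 329 CPM in TAC Veh. TAC Veh S12 lay within the Sham range and the other two above it; the 1.55-fold difference did not pass (adjusted p = 0.102; TMM scaling, adjusted p = 0.455). With a term for the runs of animal numbers it was called (log2 0.89, adjusted p = 0.0431). In 29P mice Serpinh1 rose 2.21-fold, from 233, 83.5 and 120 CPM in Sham 29P to 225–410 CPM in TAC 29P (adjusted p = 0.00817; TMM scaling, 0.0332). S4 of Sham 29P overlapped the TAC 29P range, and the rise was no longer called without S14 or with a term for the runs of animal numbers (log2 0.81, adjusted p = 0.0935). Which of the 2 comparisons called Serpinh1 thus turned round with that term.

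All 3 proteins of propeptide cleavage rose in both comparisons and under both scalings. The shares of all genes that rose were 22.5% in Veh and 31.4% in 29P mice, and 3.85% and 5.7% with TMM scaling. Bmp1, the proteinase that removes the C-propeptide, rose 2.29-fold in Veh mice and 2.21-fold in 29P mice. Pcolce (chr5:137605103-137613784, minus strand), which enhances that cleavage, was at 34.5, 27.6, 35.9, 34.2 and 38.9 CPM in Sham Veh and at 121, 64.6 and 72.8 CPM in TAC Veh. The groups did not overlap, and Pcolce rose 2.43-fold (adjusted p = 0.00455) in Veh mice, a call lost without S2, and 2.99-fold (adjusted p = 0.00139) in 29P mice. Pcolce2, a second enhancer, rose 1.90-fold, from 13.8–22.2 to 39.2, 33.8 and 32.9 CPM (adjusted p = 0.00186), and 1.94-fold in 29P mice.

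All 6 cross-linking enzymes rose in Veh mice, with a class median of 1.92 on the log2 scale (5 with TMM scaling), and 5 rose in 29P mice (3 with TMM scaling). Of all genes, 22.5% rose in Veh mice (3.85% with TMM scaling) and 31.4% in 29P mice (5.7% with TMM scaling). Lox, lysyl oxidase, which oxidises lysines and hydroxylysines so that they can cross-link, rose 4.56-fold, from 5.13, 5.73, 4.52, 10.1 and 8.64 CPM in Sham Veh to 52.7, 12.9 and 38.4 CPM in TAC Veh (adjusted p = 0.0176). The TAC Veh libraries spread widely, and without S2 or without S16 the call was lost. In 29P mice Lox ranged from 6.97 CPM in S1 to 61.6 CPM in S3 with a median of 21.6 CPM, against 5.53, 3.10 and 6.28 CPM in Sham 29P (4.22-fold, adjusted p = 0.0163; TMM scaling, 0.0535), a call that was also lost without S14 and with a term for the runs of animal numbers. The S1 value was below 2 of the 5 Sham Veh values.

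Loxl2 (chr14:69609068-69695834, plus strand), a second member of that family, had the smallest adjusted p of the 32 genes in Veh mice (0.000777). It was at 32.5, 29.4, 27.1, 25.7 and 28.6 CPM in Sham Veh and at 162, 60.5 and 119 CPM in TAC Veh. This was a 3.68-fold rise, and in 29P mice Loxl2 rose 3.33-fold, from 34.1, 18.3 and 18.8 CPM to 65.4–117 CPM (adjusted p = 0.000914). Loxl3 rose 3.86-fold and 3.01-fold in Veh and 29P mice, the second no longer called with a term for the runs of animal numbers (adjusted p = 0.0674). Loxl1 (chr9:58287738-58313186, minus strand), which acts chiefly on elastin, rose 2.701-fold and 4.26-fold. Its Sham 29P values were 29.98, 6.91 and 14.1 CPM against 18.1–30.02 CPM in Sham Veh.

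Loxl4 was scarce, at 0.46, 0.09, 0.71, 0.22 and 0.45 CPM in Sham Veh, and rose 5.62-fold to 2.99, 1.61 and 1.12 CPM in TAC Veh (adjusted p = 0.0064). Without S2, its highest library, Loxl4 was no longer called. In 29P mice it was at 0.65, 0.70 and 0.41 CPM in Sham and at 1.03–1.89 CPM in TAC, a 2.18-fold difference that did not pass (adjusted p = 0.102) although the groups did not overlap. Tgm2, a transglutaminase that forms glutamine–lysine links and that many cell types express, changed least of the class, 1.54-fold (adjusted p = 0.0416). Its groups overlapped (120–246 CPM in Sham Veh and 279, 224 and 304 CPM in TAC Veh), and its call was lost with TMM scaling, with no filter, with mitochondrial genes left out of the totals, in a fit of the 2 groups alone, and without S2, S6, S13, S16 or S19.

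**Figure D2:**
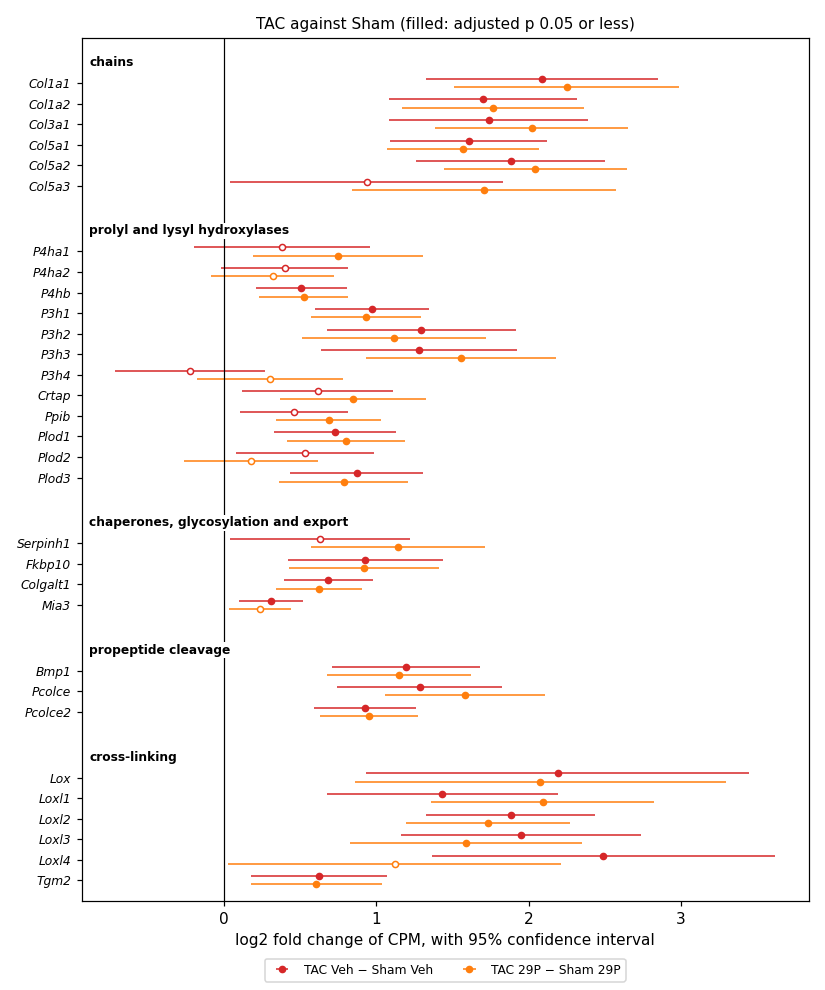
Log2 fold change of CPM (x axis) between TAC and Sham in Veh mice (red) and in 29P mice (orange) for 31 genes by class, with 95% confidence intervals; filled points passed an adjusted p of 0.05. P4ha3 is left out because it was listed at 0 in Sham libraries. In Veh mice the chains other than Col5a3 and the lysyl oxidases lie furthest to the right, in 29P mice Pcolce and P3h3 lie among them, and P4ha2, P3h4 and Plod2 have open points in both comparisons.

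**Figure D3:**
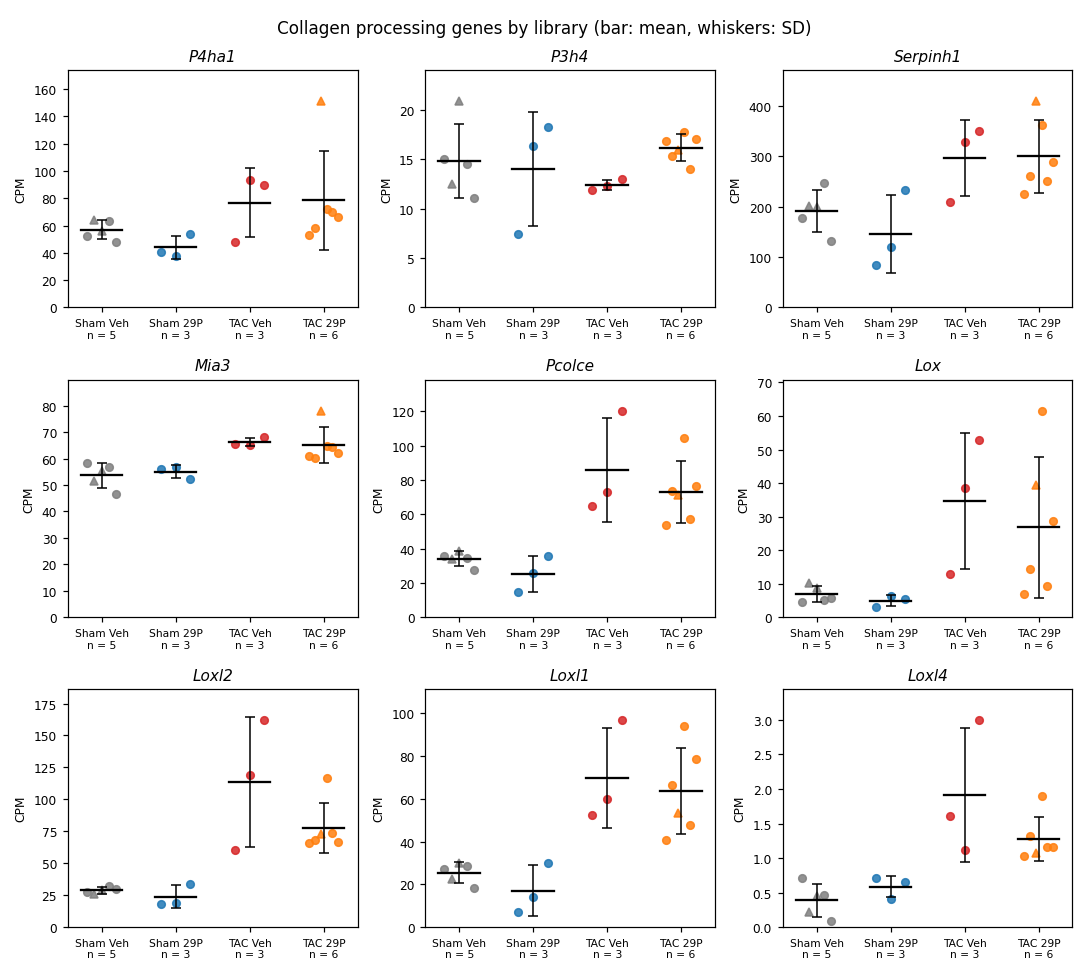
CPM (linear axes from 0) of 9 processing genes in each library, by group; bars are means, whiskers SD, and triangles mark the 3 libraries with atrial transcripts. P3h4 and Mia3 change little on this scale, Lox and Loxl2 are several times higher in most TAC libraries, and P4ha1 in TAC 29P has 1 library at 152 CPM.

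The 9 TAC libraries differed among themselves in the same way for most members. In TAC Veh, S2 had the highest value for 27 of 31 genes (without P4ha3) and S12 the lowest for 27, where S2 was highest for 50.4% and S12 lowest for 40.5% of all genes. In TAC 29P, S3 had the highest value for 22 and S1 the lowest for 22 (27.5% and 20.3% of all genes). The 6 chains summed to 1954, 1114 and 1624 CPM in S2, S12 and S16, and to 743–1940 CPM in TAC 29P. Without S2 the members that rose in Veh mice numbered 10, where 2.6% of all genes rose: the chains Col1a1, Col1a2, Col3a1, Col5a1 and Col5a2, with P3h1, Bmp1, Pcolce2, Loxl2 and Loxl3. In Sham 29P, S14 had the lowest value for 23 of 31 (55.3% of all genes), and without it 14 members rose in 29P mice, with 6.41% of all genes. With a term for the runs of animal numbers in the fit, 26 members rose in Veh mice (19.2% of all genes) and 12 in 29P mice (4.19% of all genes). The 26 include P4ha3, which was not called in Veh mice without that term.

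Ratios of 2 members within a library do not depend on how that library was scaled. Relative to Col1a1, Serpinh1 was lower in TAC. The log2 ratio of their CPM was 1.77, 1.86, 1.45, 2.06 and 1.53 in Sham Veh and 0.03, 0.22 and 0.58 in TAC Veh. The 2 groups did not overlap, and the difference was −1.46 (exact two-sided permutation test, p = 0.0179, n = 5 and 3, the smallest p these groups allow; adjusted p = 0.143 over 24 comparisons). In 29P mice the ratio was 1.49, 1.68 and 1.77 in Sham and 0.09–0.97 in TAC, a difference of −1.10 (exact permutation test, p = 0.0119, n = 3 and 6, again the smallest possible; adjusted p = 0.143). Col5a1 relative to Col1a1 was also lower in TAC, with a difference of −0.48 in Veh mice (exact permutation p = 0.0179, adjusted p = 0.143) and −0.68 in 29P mice (exact permutation p = 0.0357, adjusted p = 0.171).

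The ratio of Col1a1 to Col1a2 was 0.39 higher on the log2 scale in TAC Veh than in Sham Veh (exact permutation p = 0.107, adjusted p = 0.321) and 0.48 higher in TAC 29P than in Sham 29P (exact permutation p = 0.0952, adjusted p = 0.321). Col3a1 relative to Col1a1 differed by −0.35 and −0.23 in the same comparisons (exact permutation p = 0.143 and 0.286). Lox relative to Col1a1 differed by 0.10 and −0.17 (exact permutation p = 0.804 and 0.821), with SDs of 0.70 to 0.73 within groups. P4ha3 relative to P4ha1, with 0.1 CPM added to both, differed by 1.20 and 1.42, and the second value turned to −0.20 with 1 CPM added; no test is given, since P4ha3 passed the filter through TAC libraries alone. None of the 24 comparisons, those of P4ha3 counted, passed after adjustment, and those of 29P with Veh had exact permutation p-values from 0.238 upward.

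**Figure D4:**
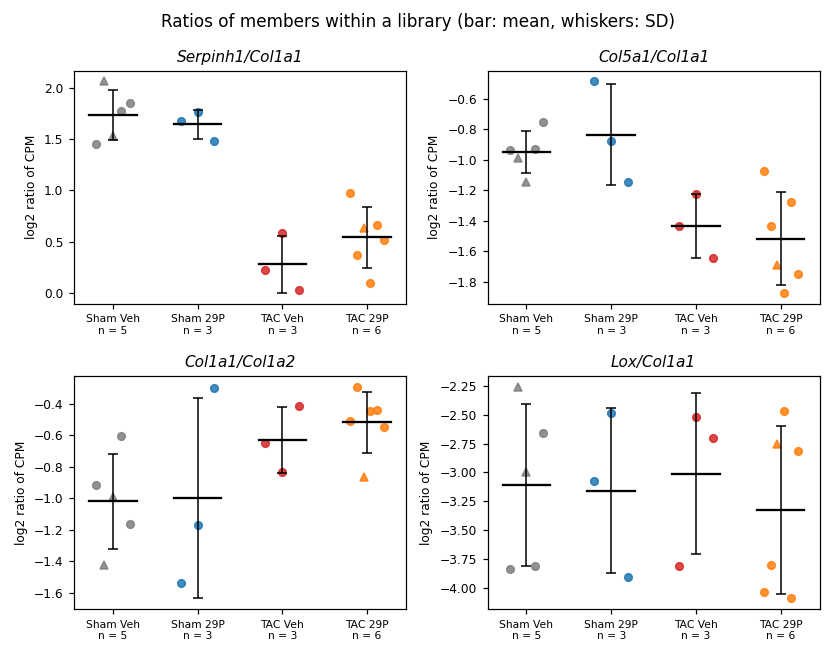
Log2 ratio of CPM of 2 genes within each library (y axis), by group, for 4 of the 6 ratios; bars are means, whiskers SD, and triangles mark the 3 libraries with atrial transcripts. Serpinh1/Col1a1 is lower in all 9 TAC libraries than in all 8 Sham libraries, and Lox/Col1a1 is spread over about the same range in each group.

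Between TAC 29P and TAC Veh no member passed at an adjusted p of 0.05 (limma; background 0%) and none at an unadjusted p of 0.05, where 1.98% of all genes tested did. Of the 31 members apart from P4ha3, 3 had a higher fitted mean in TAC 29P (P3h4, Col5a3 and Serpinh1) and 27 had a lower median CPM. The median difference of the 32 was −0.21 on the log2 scale, against −0.02 over all genes. Without S2 of TAC Veh 12 of the 32 were higher in TAC 29P, and without the 3 libraries with atrial transcripts 2 were. Of all 16218 genes, 7210 were higher with every library, 9253 without S2 and 7246 without the libraries with atrial transcripts.

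Col1a1 was at 343, 180 and 220 CPM in TAC Veh and spanned 114–341 CPM in TAC 29P, so 2 of the 3 Veh values lay inside the 29P range and the other was just above it. The ratio of TAC 29P to TAC Veh was 0.845 (95% confidence interval 0.506 to 1.41). It was 0.780 (0.516 to 1.18) for Col1a2, 0.807 (0.520 to 1.25) for Col3a1, 0.796 (0.563 to 1.13) for Col5a1, 0.766 (0.505 to 1.16) for Col5a2 and 1.25 (0.684 to 2.27) for Col5a3. Each interval contains 1, and each also reaches down to the lower limit given, so that a fall of that size cannot be told from no difference.

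Among the processing genes the smallest unadjusted p was that of Loxl2 (limma, unadjusted p = 0.0792). Its 3 TAC Veh libraries were at 162, 60.5 and 119 CPM and its TAC 29P libraries at 65.4–117 CPM with a median of 70.7, a ratio of 0.719 (0.495 to 1.04). Loxl2 passed at an unadjusted p of 0.05 when the fit held a term for the runs of animal numbers, and without S12 or without S3. The ratios of Lox (0.677, 0.291 to 1.58), Loxl4 (0.708, 0.332 to 1.51) and Loxl3 (0.737, 0.434 to 1.25) had wider intervals. Serpinh1 (1.01, 0.682 to 1.51), P4ha1 (0.998, 0.678 to 1.47) and Mia3 (0.980, 0.851 to 1.13) were closest to 1. The interval of Mia3 is the narrowest of these 3.

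**Figure D5:**
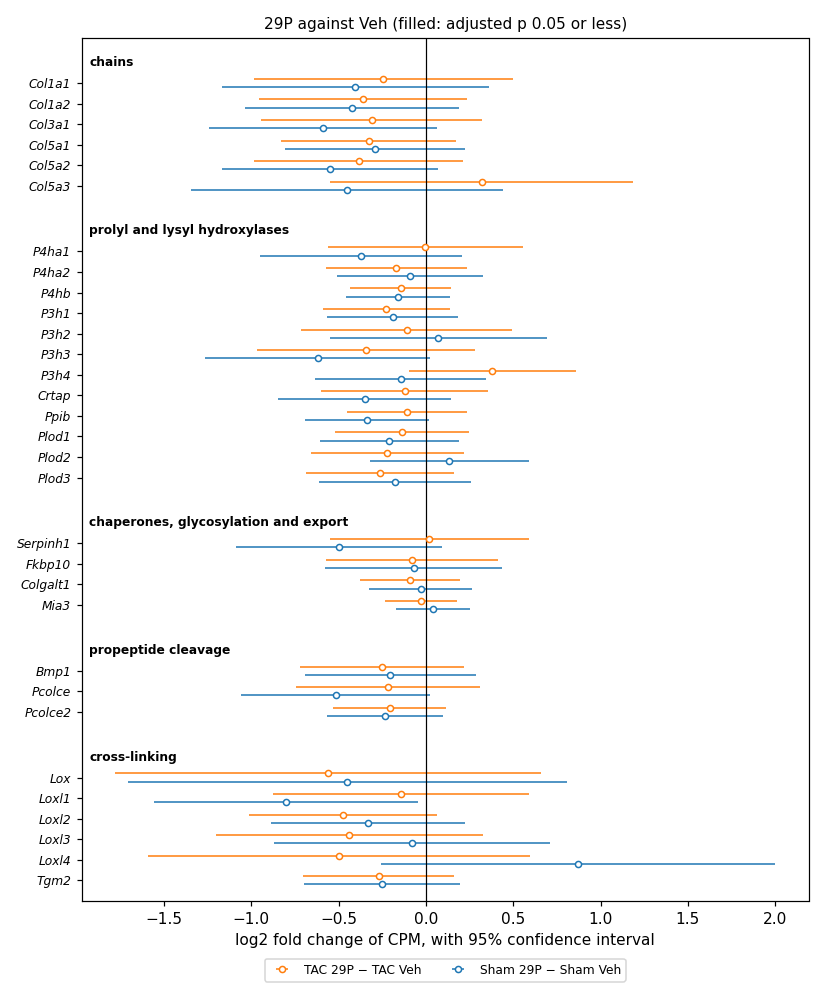
Log2 fold change of CPM (x axis) of 29P against Veh in TAC (orange) and in Sham mice (blue) for 31 genes by class, with 95% confidence intervals. All points are open, since none passed an adjusted p of 0.05, and most lie to the left of 0 in both comparisons.

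In Sham mice, which had no aortic constriction, no member differed between 29P and Veh at an adjusted p of 0.05 (limma; 1 gene, 0.00617% of all tested, did). Loxl1 alone was lower at an unadjusted p of 0.05 (limma, unadjusted p = 0.0391, adjusted p = 0.652, log2 difference −0.80), where 5.89% of all genes were lower; its value rests on S14 and S15, as S4 was at 29.98 CPM. It was not called at that threshold without S5, S13, S14, S15 or S20, without the libraries with atrial transcripts, in a fit of the 2 groups alone or with a term for the runs of animal numbers. The median difference of the 32 was −0.27 on the log2 scale against −0.06 for all genes. Without S14 it was −0.04, with 15 of 32 higher, and without S4 instead 13 members were lower at an unadjusted p of 0.05, with 14.9% of all genes. The 13 include the chains Col1a1, Col3a1, Col5a1, Col5a2 and Col5a3. At the same threshold a fit of the 2 groups alone called Col1a2, Col3a1, Col5a2 and P4ha1 lower (391 of all genes). TMM scaling called P3h3 and Pcolce lower beside Loxl1 (915 of all genes).

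Other genes of the same pathway moved unevenly. Of 16 further genes for folding, modification and export, 5 rose in Veh mice and none fell, with a median of 0.26, below that of all genes (0.35), and with TMM scaling none rose and 1 fell. Over all genes 22.5% rose and 1.91% fell, and with TMM scaling 3.85% rose and 5.75% fell. Txndc5, a disulphide isomerase of the endoplasmic reticulum, rose from 32.6–55.0 CPM in Sham Veh to 99.5, 63.6 and 74.6 CPM in TAC Veh (log2 0.83, adjusted p = 0.0119; TMM scaling, 0.0631), and Creb3l1, a transcription factor that activates collagen genes, was 0.82 higher (adjusted p = 0.0580). Of 6 further propeptide proteinases only Adamts2, which removes the N-propeptide, rose: it was at 13.1–21.3 CPM in Sham Veh and at 72.1, 43.3 and 60.9 CPM in TAC Veh (log2 1.66, adjusted p = 0.000858). Tll2, another of that list, did not pass (adjusted p = 0.433), was listed at 0 in 1 Sham Veh library and stayed at or below 1.79 CPM in every library.

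Of the other fibrillar chains 3 were tested, and 1, Col27a1, rose from 2.19–4.15 to 5.79, 5.38 and 7.94 CPM (log2 1.11, adjusted p = 0.0248), a call not made with TMM scaling. Col11a1 was listed at 0 in 2 Sham Veh and 3 Sham 29P libraries and reached 3.89 CPM in TAC 29P S3. Of 11 genes for fibril assembly and turnover, 9 rose in Veh mice and none fell, with a median of 1.43, and 5 rose with TMM scaling. The shares of all genes that rose were 22.5%, and 3.85% with TMM scaling. Fmod, a proteoglycan that binds fibrils, was at 0.18–9.29 CPM in Sham Veh and at 24.6, 17.2 and 22.3 CPM in TAC Veh (log2 4.16, adjusted p = 0.0389; TMM scaling, 0.0800), and its highest Sham values were those of S19 and S20, which carry atrial transcripts. In TAC 29P Fmod spread from 2.13 to 83.1 CPM. Fn1, fibronectin, on which collagen fibrils are laid down, was at 28.2–51.0 CPM in Sham Veh and at 177, 96.8 and 173 CPM in TAC Veh (log2 1.82, adjusted p = 0.00181).

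Markers of cell types also differed between TAC Veh and Sham Veh. Of 8 markers of resting fibroblasts 4 rose and 1 fell in Veh mice (summed level 741–1231 CPM in Sham Veh and 1274–1631 CPM in TAC Veh), and of 8 markers of activated fibroblasts 7 rose (171–309 and 759–1980 CPM); with TMM scaling these counts were 0 and 1, and 5. In TAC 29P the activated fibroblast markers summed to 355–1976 CPM. All 6 macrophage markers rose (273–317 and 403–626 CPM), as did 1 of 6 endothelial and 2 of 6 smooth muscle and pericyte markers, and all 4 red blood cell markers rose (1009–2438 and 3052–4933 CPM). With TMM scaling 1 macrophage marker, no endothelial, 1 smooth muscle and pericyte and no red blood cell marker rose. Of all genes, 22.5% rose and 1.91% fell, and with TMM scaling 3.85% rose and 5.75% fell. The 8 cardiomyocyte markers summed to 45189–57354 and 43194–48704 CPM, and 1 of them fell (4 with TMM scaling). In 29P mice the resting fibroblast markers summed to 731–832 CPM in Sham and 955–1750 CPM in TAC, and the macrophage markers to 187–356 and 393–514 CPM. The red blood cell markers overlapped there, at 555–1663 and 1027–4118 CPM, with medians of 1478 and 1441 CPM. Their rise was thus seen in the Veh comparison and not in the medians of 29P mice. The part of these cell types in the changes of collagen genes was not tested.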

How the data were processed

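RNA was extracted from the left ventricular apex, and the authors sequenced polyadenylated RNA libraries, aligned reads with STAR 2.3.7 in Partek to mm10 and deposited gene CPM with 0.0001 added. The counting tool and its strand setting are not given in the sources used here. The deposited table names 17 libraries; 3 others of the study were not analysed here, among them a TAC Veh library that the authors dropped because it grouped with Sham mice. Of the 32 members, 15 overlap a gene on the opposite strand and 7 a protein-coding gene, so reads of such pairs (for example Loxl3 and Htra2, Tgm2 and Rprd1b, Pcolce and Fbxo24) may not be separated. A value above the added constant by no more than 0.01 times that constant is called listed at 0. Raw counts could not be recovered: 77.1–80.3% of values under 2 CPM lay within 0.02 of a whole multiple of the step, and counting error is unknown.

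Log2 CPM was fitted with limma 3.58.1 (R 4.3.3; trend, 4 group means, all 17 libraries) for genes with 0.5 CPM or more in 3 or more libraries. P-values were adjusted (Benjamini-Hochberg) over 16218 genes, a call being 0.05 or less; an unadjusted 0.05, the authors' threshold in DESeq2, was the second rule. Ratios were tested by exact permutation. The fit was tested on simulated data. Gene positions and lengths are from GENCODE vM21 (start the same as in the table for 32 of 32 members). Promoter windows are from RefSeq; 20 members matched. A planned description of protein sequences was not made, and Col2a1 was not analysed here.

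Members and lists were chosen with earlier results of these data known. Values are given for the chains, for the member with the largest and the smallest change after TAC in each other class, for members past an unadjusted 0.05 with 29P and for members against their class, and for the 2 largest changes in each further list. P4ha1, P4ha2, Serpinh1, Lox, Loxl2, Loxl3, Bmp1, Colgalt1 and the remaining hydroxylases were added after their values were seen. Alternatives were other scalings, filters and added constants, fits of 2 groups, the run of animal numbers, and leaving out each library.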

Additional observations from a re-analysis of the deposited data

Results flagged for a closer look

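In groups of 5 and 6 libraries, 64 sets of values of the members were examined on the log2 scale. In 6 of them a library stood far from the rest, where chance gives about 1 in 20 for independent sets. The sets share libraries and are not independent, and no share over all genes is given. The count is therefore not read as a trait of the members. TAC 29P S18, one of the 3 libraries with atrial transcripts, stood above the other 5 for P4ha1 (152 CPM against 53.2–71.9 CPM), P4ha2 (53.2 against 34.6–39.3 CPM) and Mia3 (78.2 against 60.2–64.8 CPM). TAC 29P S3 stood above the others for Loxl2 (117 against 65.4–73.7 CPM). Sham Veh S6 stood below the others for P3h1 (7.56 against 9.88–10.5 CPM) and Loxl3 (2.42 against 4.74–5.77 CPM), and it had the lowest value of its group for 26 of 31 members (41.3% of all genes) and 38.8% mitochondrial transcripts. No member had a TAC effect that differed between Veh and 29P mice at an unadjusted p of 0.05.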

How the results depend on the processing

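The log2 change after TAC of each chain, propeptide gene and cross-linking enzyme kept its sign in both comparisons under every alternative tried. With TMM scaling, 1557 of all genes were called in TAC Veh against Sham Veh and 1726 in TAC 29P against Sham 29P; with median-of-ratios scaling 1544 and 1733; with totals without mitochondrial genes 2090 and 2378. The 2 groups alone gave 2609 in Veh mice, a term for the runs of animal numbers 706 in 29P mice, and leaving out the atrial libraries (chosen after seeing the data) 2323 in Veh mice. Members higher in TAC 29P numbered 17 with TMM or median-of-ratios scaling and 12 with the run term. At an unadjusted p of 0.05, TAC 29P against TAC Veh gave 1 member higher with TMM scaling, median-of-ratios scaling or the 2 groups alone, and 1 lower with the 2 groups alone or the run term. Of all 16218 genes, 240, 238 and 280 were higher in the same fits, and 399 and 286 lower. Sham 29P against Sham Veh gave 3 lower with TMM or median-of-ratios scaling, 4 with the 2 groups alone, and 0 with the run term or without the atrial libraries, where the interaction gave 1 lower. Of all 16218 genes, 915, 846, 391, 539 and 459 were lower in these fits, and 304 in that interaction.

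Log2 changes of other sign follow, TMM before median-of-ratios scaling. Mia3 was −0.031 and −0.018 in Veh mice. In TAC 29P against Sham 29P, P4ha2 was −0.035 and −0.039, P3h4 −0.053 and −0.057, Plod2 −0.18 and −0.18 (−1.11e-05 with totals without mitochondrial genes) and Mia3 −0.12 and −0.12. In TAC 29P against TAC Veh, P4ha1 was 0.023 and 0.018, and 0.020 with totals without mitochondrial genes. With the run term, Col5a3 was −0.061, Serpinh1 −0.31 and Mia3 0.0095; without the atrial libraries Serpinh1 was −0.078. With 1 CPM added, P4ha3/P4ha1 was −0.20 in TAC 29P against Sham 29P, 0.014 in TAC 29P against TAC Veh and 0.25 in Sham 29P against Sham Veh, and Lox/Col1a1 was −0.034 in Veh mice and 0.015 in Sham mice.

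With each library left out, members higher numbered 10 to 24 in TAC Veh (10 without S2) and 14 to 27 in TAC 29P (14 without S14), and all genes called 468 to 4584 and 1076 to 6683. Unadjusted counts were 0 to 2 lower in TAC 29P against TAC Veh, 0 to 1 higher and 0 to 13 lower in Sham 29P against Sham Veh, and 0 to 4 higher and 0 to 1 lower in the interaction. The 13 and the 4 came without S4, where 2424 of all 16218 genes were lower and 1289 higher, respectively. The 2 came without S3 or S12, with 214 and 329 of all genes lower. In TAC 29P against TAC Veh, Col1a1 spanned −0.45 to 0.018, P4ha1 −0.32 to 0.17 and Serpinh1 −0.21 to 0.16, and P3h4 in TAC 29P against Sham 29P −0.10 to 0.55. Of the ratios, in TAC Veh against Sham Veh Col1a1/Col1a2 spanned 0.28 to 0.49 and Lox/Col1a1 −0.14 to 0.50. In TAC 29P against Sham 29P, Col1a1/Col1a2 spanned 0.22 to 0.83, Col5a1/Col1a1 −0.84 to −0.51, P4ha3/P4ha1 1.17 to 1.58 and Lox/Col1a1 −0.55 to 0.16. In TAC 29P against TAC Veh, Col3a1/Col1a1 spanned −0.17 to 0.073, Col5a1/Col1a1 −0.19 to 0.020 and P4ha3/P4ha1 −0.31 to 0.092. In Sham 29P against Sham Veh, Col1a1/Col1a2 spanned −0.33 to 0.29, Col5a1/Col1a1 −0.060 to 0.27 and Lox/Col1a1 −0.38 to 0.33.

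The cause of these shifts was not tested. The groups compared share no replicate number; the runs of animal numbers, each with TAC and Sham libraries, were the block used (the run term above). Genes near 0 CPM, such as P4ha3, are limited by depth.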
